A study of Arabidopsis thaliana with 625 samples.

Results

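Transcripts of the chloroplast genome were described in 621 single cells from Arabidopsis thaliana seedlings as all genes whose identifier begins with ATCG, the prefix of loci on that genome, in both deposited Smart-seq2 tables. This gave 133 of 32833 genes. Smart-seq2 is a plate-based method that amplifies and sequences the RNA of 1 cell per well without molecular identifiers. The cells were sorted from aerial tissue at 10 days post-germination from 2 reporter lines. In the line ATML1p::YFP-RCI2A (143 cells) the promoter of ATML1, an epidermal homeodomain gene, drives a yellow fluorescent membrane marker. In the line TMMp::TMM-YFP (478 cells) the promoter of TMM, a stomatal-lineage protein resembling receptors, drives TMM fused to the same fluorophore. The labels name no other allele or treatment. Each line had 2 labelled pools, and the cell names placed the cells on 5 ATML1p and 7 TMMp sort plates. Each plate held 1 line, so plate and line cannot be told apart.

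The chloroplast genome is a small remnant of the genome of a cyanobacterial ancestor. It encodes core subunits of the photosystems, of the cytochrome b6f complex and of the ATP synthase, the large subunit of Rubisco, part of the chloroplast's own ribosome and RNA polymerase, and ribosomal and transfer RNAs. Light-harvesting proteins, the small subunit of Rubisco and most other chloroplast proteins are made from nuclear genes, so that each photosynthetic complex is assembled from products of both genomes. In a leaf the mesophyll carries most of the large chloroplasts, pavement cells of the epidermis hold small ones, and guard cells keep chloroplasts. Chloroplast genes lie in clusters that are read as long transcripts and cut afterwards. Their RNAs mostly lack the stable poly(A) tail that Smart-seq2 primes on, so the levels given here are of captured RNA, and the part of priming in them was not tested.

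The files give identifiers only, and the reference used here carries a name for 6 of the 133 in its notes. These were ribosomal protein S11 (ATCG00750), ribosomal protein L20 (ATCG00660), ribosomal protein L2 (ATCG01310), the plastid-encoded CLP P (ATCG00670), a CemA-like proton extrusion protein (ATCG00530) and photosystem II reaction center protein G (ATCG00430). CLP P is the proteolytic subunit of the protease that degrades proteins inside the chloroplast, and L20, L2 and S11 belong to the chloroplast ribosome. The other 127 members are given by identifier.

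Levels are in TPM, a length-corrected share of a library scaled to a fixed total, as the authors deposited them. Since TPM hold no read depth, the count of genes reaching 1 TPM is given in its place. Its mean was 3439 per ATML1p cell and 3097 per TMMp cell, and between plates it ran from 2017, on plate ML2, to 3869. All 621 cells had a sort record, and no 2 cells had identical values.

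Chloroplast RNA was dominated by few members. Ranked by mean TPM over the cells of both lines, the 5 highest members held 32.4% of all chloroplast TPM in ATML1p cells and 39.7% in TMMp cells. The 12 highest held 56.7% and 60.5%. A total of 9 members reached a mean of 1000 TPM or more over all cells, 54 reached 100 or more, and 37 stayed below 1. In the average cell 54.3 members reached 1 TPM in ATML1p and 50.1 in TMMp.

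ATCG00065 was the highest member by mean TPM over all cells. In ATML1p cells alone its mean of 3119 TPM was below those of ATCG00030 (4282 TPM) and ATCG00270 (4158 TPM). Means of ATCG00065 over the cells of a pool were 3506 and 2957 TPM in pools 1 and 2 of ATML1p, against 3800 and 3539 TPM in those of TMMp. Both TMMp pools were above both ATML1p pools, by less than the spread between the ATML1p pools at the closest, and the gene was detected in 88.1% of ATML1p and 96.0% of TMMp cells. ATCG00030, the second highest, stood at 2312 and 5101 TPM in pools 1 and 2 of ATML1p, against 2658 and 2655 TPM in those of TMMp. The high ATML1p pool was pool 2, whose plates ML1-5, ML1-6 and ML1-7 had 5543, 6178 and 3819 TPM, against 2282 and 2356 TPM on plates ML1 and ML2 of pool 1. ATCG00270, the third, had 4238 and 4125 TPM in pools 1 and 2 of ATML1p, against 1821 and 2070 TPM in those of TMMp. Both ATML1p pools were thus above both TMMp pools for this gene, although plate ML2 of ATML1p, at 2247 TPM, lay close to the highest TMMp plate at 2195 TPM.

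The next 9 members by mean TPM over all cells were ATCG00580 (2162 TPM), ATCG00010 (1881 TPM), ATCG00550 (1359 TPM), ATCG00570 (1274 TPM), ATCG00340 (1242 TPM), ATCG00710 (1003 TPM), ATCG00470 (979 TPM), ATCG00480 (920 TPM) and ATCG01020 (918 TPM). Among the named members ribosomal protein S11 was the highest, at rank 23, with pool means of 478 and 518 TPM in ATML1p and 411 and 280 TPM in TMMp. The protease subunit CLP P, at rank 26, had 476 and 321 TPM in ATML1p and 319 and 270 TPM in TMMp, and was seen in 78.3% and 83.5% of cells. The CemA-like protein followed at 368 and 259 TPM in ATML1p and 175 and 116 TPM in TMMp. Ribosomal protein L20 was detected in 49.0% of ATML1p and 49.2% of TMMp cells, and photosystem II reaction center protein G in 39.2% and 18.4%.

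**Figure D1:**
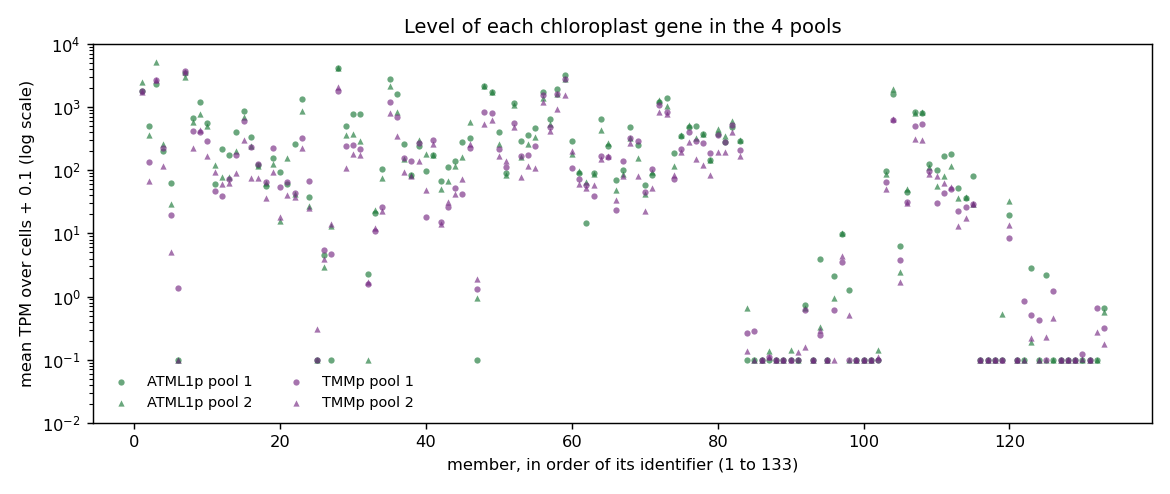
Mean TPM over cells plus 0.1 (log scale) of each of the 133 chloroplast genes in the 4 pools, in the order of their identifiers. Levels span from 0 to above 1000 TPM, and 2 runs of neighbouring identifiers, of 19 and 18 genes, hold mostly values near 0.

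Low members were not scattered. Of the 37 members with a mean below 1 TPM, 18 were among the 19 identifiers from ATCG00830 to ATCG01000 and 17 among the 18 from ATCG01140 to ATCG01310, whose highest means were 5.39 and 15.8 TPM. Of the 96 members outside these runs, 2 had a mean below 1 TPM. All 16 members at 0 in every cell were inside the runs, 8 in each. Ribosomal protein L2, the last identifier of the second run, was seen in 15 of 621 cells, with a pool mean of at most 0.552 TPM. The reference lists rpl2 and 6 other protein-coding chloroplast genes at 2 loci each, 7 in all. The sources used here do not say how the authors treated reads that match 2 places, so the values of members in these runs are uncertain.

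Neighbouring identifiers also varied together from cell to cell. Across the 86 members detected in at least 10% of the cells of both lines, the Spearman correlation within a plate, averaged over plates, had a median of 0.41 for 74 pairs of consecutive identifiers in TMMp and of 0.10 for the other 3581 pairs. In ATML1p the medians were 0.61 and 0.48. The most correlated pair in TMMp was ATCG00570 with ATCG00580, at 0.92 (0.95 in ATML1p), and 16 of the 20 most correlated pairs in TMMp were consecutive. S11, whose identifier follows ATCG00740, was the one named member in these 20 pairs, at 0.82 with that neighbour and at 0.61 with ATCG00760. The cells of a plate share library and TPM total, whether reads of overlapping genes were counted for both was not tested, and these values are a description only.

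The first comparison was between the lines. Chloroplast transcripts held 5.22% ± 0.75 of TPM in ATML1p (mean ± SD of plate means, n = 5 plates) and 3.00% ± 0.42 in TMMp (n = 7). Plate means in ATML1p were 5.75% on ML1, 4.98% on ML2, 5.78% on ML1-5, 5.59% on ML1-6 and 4.01% on ML1-7. In TMMp the lowest plate mean was 2.49%, the median 2.87% and the highest 3.64%. No plate of one line overlapped the other, and the difference of -2.22 percentage points had p = 0.00126 in a two-sided exact permutation test over 792 splits, the smallest p they can give (0.0021 after adjustment over 5 measures). Pool means were 5.44% and 5.05% in ATML1p and 3.55% and 2.78% in TMMp. The labels do not say whether pools or plates came from separate plants, so these p-values measure the spread between plates, which may be technical.

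The same plates differed in other measures. Summed TPM of 57 nuclear photosynthesis genes, which encode light-harvesting, photosystem, electron transport, ATP synthase and Rubisco proteins, ran from 25560 to 104400 per cell in ATML1p plates and from 6093 to 10490 in TMMp plates. Side scatter, the light a cell reflects sideways in the sorter, was 11.2 ± 0.24 in ATML1p and 10.5 ± 0.16 in TMMp on the log2 scale (adjusted exact permutation p = 0.0021 for each). The share of mitochondrial transcripts was 2.99% ± 1.26 in ATML1p and 3.50% ± 0.23 in TMMp (adjusted exact permutation p = 0.39).

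**Figure D2:**
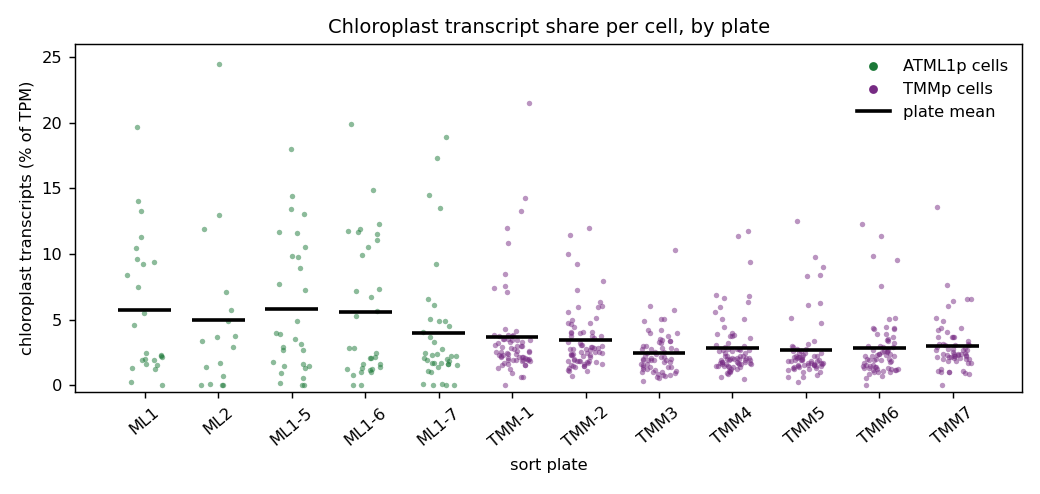
Share of TPM held by chloroplast transcripts in each cell, by sort plate, with the plate mean as a bar. Plate means are 4.01% to 5.78% in ATML1p and 2.49% to 3.64% in TMMp, and the ATML1p plates hold more cells above 10%.

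The line difference lay in the upper part of the distribution. The median cell had 2.80% chloroplast TPM in ATML1p and 2.31% in TMMp, while the upper quartile was 8.66% and 3.42%. With plate medians in place of means the difference was -0.62 points (exact permutation p = 0.042). A share of 10% or more was reached by 28 of 143 ATML1p cells (19.6%) and by 14 of 478 TMMp cells (2.93%). Of the 28 ATML1p cells, 24 were among the 60 cells in which the 57 nuclear genes summed to at least 10000 TPM, called photosynthesis-high here. Without the photosynthesis-high cells of both lines the plate means were 3.16% ± 1.01 (n = 5) and 2.92% ± 0.59 (n = 7), and the difference of -0.25 points had p = 0.60 in the exact permutation test.

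Single chloroplast genes were compared between lines with limma on log2(mean TPM + 1) of the 4 pools, adjusting over all genes tested. Of 96 members that passed the filter on low values, 3 were lower in TMMp and 0 were higher, or 3.12%, beside 1.88% of all 18390 genes tested that were lower. The median log2 difference over these members was -0.78, and over all genes it was 0.32. ATCG00220 had 1361 and 879 TPM in pools 1 and 2 of ATML1p, against 322 and 226 TPM in those of TMMp, a log2 difference of -2.02 ± 0.35 (SE, adjusted p = 0.033, limma). ATCG00630 had 652 and 431 TPM in pools 1 and 2 of ATML1p, against 166 and 153 TPM in those of TMMp, a log2 difference of -1.73 ± 0.32 (adjusted p = 0.040, limma). For both genes each ATML1p pool was above each TMMp pool.

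The third lower member was ATCG00020. None of the named members passed the threshold, with log2 differences from -1.44 for photosystem II reaction center protein G to 0.19 for ribosomal protein L20. The count rested on the unit and the cells used. It was 43, all lower in TMMp, with plates as the unit, and 0 without the photosynthesis-high cells, when 9 members had an unadjusted p under 0.05 and the median over the members was -0.04. Without these cells and with plates as the unit, added after the data were seen, 2 were lower and 2 higher. Leaving out 1 pool left its line with a single pool, so the spread came from the other line alone and the lone pool was assumed to vary like it. The count was then 14 without pool 1 of ATML1p, all lower in TMMp, and 42 without pool 2, of which 40 were lower and 2 higher. Without pools 1 and 2 of TMMp 12 and 5 were called, all lower. Without plate ML2 ATCG00630 and ATCG00020 had adjusted p of 0.061 and 0.055. In the same fit to pools 50 of the 57 nuclear photosynthesis genes were lower in TMMp, with a median log2 difference of -2.60, and so were the mesophyll markers CA1 and LOX2, a carbonic anhydrase and a lipoxygenase, with a median of -3.97. All 8 stomatal markers were above 0 in TMMp, with a median of 2.80 and 1 called higher. Of 6 epidermal markers 5 were above 0 and of 5 guard cell markers 3, with 0 called. Of 4 vasculature markers 2 were above 0 and 1 was called lower. Of 53 mitochondrial genes tested 48 were above 0, with a median of 1.04 and 0 called. Of 22 nuclear genes for chloroplast transcription, which include sigma factors and proteins bound to the chloroplast RNA polymerase, 0 passed the threshold.

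The second comparison followed chloroplast RNA with the nuclear photosynthesis genes inside plates. In ATML1p the photosynthesis-high cells held 8.05% ± 1.57 chloroplast TPM and the other cells of the same plates 3.16% ± 1.01 (SD, n = 5 plates). The high cells of plates ML1, ML2, ML1-5, ML1-6 and ML1-7 had 7.58%, 5.76%, 7.87%, 9.55% and 9.49%, and the other cells of these plates 3.78%, 4.56%, 2.16%, 3.01% and 2.31%. The high cells were above the others on 5 of 5 plates, by 1.2 points on ML2 and by 3.79 to 7.18 points on the other plates (exact sign-flip p = 0.062, the smallest that 5 plates can give). A share of 10% or more occurred in 40.0% of the high cells (exact 95% interval 27.6 to 53.5%, counting error only) and in 4.82% of the others (1.33 to 11.9%).

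In TMMp the photosynthesis-high cells held 3.30% ± 0.84 and the other cells 2.92% ± 0.59 (n = 7 plates), higher on 4 and lower on 3 plates (exact sign-flip p = 0.45). The within-plate difference was 4.88 points in ATML1p and 0.38 points in TMMp, and these differed in an exact permutation test over 12 plates (p = 0.0038). The classes were not equal in the gene sum, which averaged 116000 TPM in the high cells of ATML1p and 23710 TPM in those of TMMp. Genes detected were 3446 ± 1039 in the high and 3288 ± 665 in the other ATML1p cells, higher on 3 of 5 plates. In TMMp they were 3881 ± 711 and 2884 ± 349, higher on 7 of 7. The mitochondrial share of the high ATML1p cells was lower on 4 of 5 plates, but 7.46% against 3.62% on ML2. In TMMp it was 3.41% ± 0.82 and 3.51% ± 0.34, higher on 4 of 7. The part of these measures was not tested. Summed TPM of 6 epidermal markers ran from 36.9 to 567.9 over plates in the high cells of ATML1p and from 215 to 916 in the others, and in TMMp from 2164 to 3827 and from 684 to 1274. For 6 guard cell markers the ATML1p sums were 0 to 106 TPM in the high cells, where 4 of the 6 were at 0, and 114 to 418 TPM in the others. The 2 mesophyll markers CA1 and LOX2 summed to 462 to 2238 TPM in the high ATML1p cells and to 40.0 to 251 TPM in the others, with no overlap between plates, and both were higher in the limma fit over genes, with a median log2 difference of 4.32. In TMMp their sums of 10.6 to 318 and 18.1 to 102 TPM overlapped. For 6 vasculature markers the ATML1p sums were 0 to 754 TPM in the high cells, where 2 of the 6 were at 0, and 0 to 24.4 TPM in the others, where 3 were. For 8 stomatal markers they were 0 to 130 TPM in the high cells, where 3 of the 8 were at 0, and 63.5 to 346 TPM in the others. In that limma fit 2 of the 6 epidermal and 2 of the 6 guard cell markers were called lower in the high ATML1p cells. All 6 markers of each of these lists were below 0. No vasculature or stomatal marker passed the threshold there. In TMMp the stomatal sums were 1446 to 3370 TPM in the high cells and 1020 to 1388 TPM in the others, with no overlap. The guard cell sums in TMMp, 163 to 614 and 174 to 314 TPM, overlapped. The part of all these markers in the result was not tested.

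Across the cells of a plate the Spearman correlation of chloroplast share with the nuclear sum was 0.46 to 0.53 on 4 ATML1p plates of 25 to 38 cells and -0.22 on ML2, with 17 cells. On TMMp plates, of 63 to 76 cells, it ran from -0.20 to 0.39. Inside the ATML1p cells under 10000 TPM it ran from -0.54 to 0.22. With the share of mitochondrial transcripts the correlation was 0.40 to 0.58 on all 7 TMMp plates and -0.31 to 0.27 on the ATML1p plates. With the number of genes detected it was -0.57 to -0.10 in TMMp. The points of a plate share library preparation and a fixed TPM total, so these values are descriptions.

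**Figure D3:**
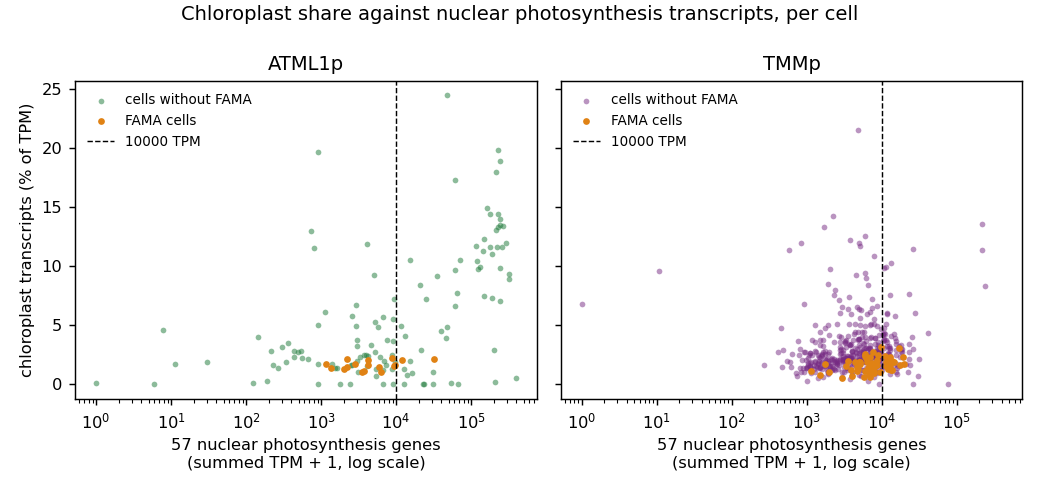
Chloroplast share of TPM in each cell against the summed TPM plus 1 of 57 nuclear photosynthesis genes (log scale), for each line, with FAMA cells in orange and the limit of 10000 TPM dashed. ATML1p cells past the limit average 8.20% and the other ATML1p cells 2.97%, while TMMp cells past it average 3.34% and the others 2.93%.

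Gene by gene, 39 of 98 members tested were higher in the photosynthesis-high ATML1p cells and 0 were lower (39.8%), beside 3.91% of 18301 genes that were higher. The median log2 difference over the members was 1.55, with 92 of 98 above 0, while over all genes it was -0.29. ATCG00490 was at 650 ± 183 TPM in the high cells and 92.3 ± 29.9 TPM in the others (SD, n = 5 plates). All plates of high cells, at 458 to 925 TPM, lay above all plates of other cells, at 61.5 to 126 TPM, and the log2 difference was 2.82 ± 0.45 (SE, adjusted p = 0.0023, limma).

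ATCG00470, one of the 12 highest members, was at 3889 ± 1158 TPM in the high cells and 982 ± 419 TPM in the others. Its plate ranges of 2741 to 5308 and 614 to 1644 TPM did not overlap, and the log2 difference was 2.03 ± 0.34 (adjusted p = 0.0028, limma). Ribosomal protein L20 was the one named member past the threshold, at 171 ± 37.6 TPM against 40.5 ± 14.6 TPM, a log2 difference of 2.1 ± 0.56 (adjusted p = 0.038, limma). It was detected in 68.3% of the high cells and in 34.9% of the others, and its call was lost without any 1 of plates ML1, ML1-5, ML1-6 and ML1-7 (adjusted p from 0.11 to 0.12). CLP P stood at 614 ± 210 TPM in the high cells and 248 ± 94.7 TPM in the others, higher on 5 of 5 plates, with adjusted p = 0.063.

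The highest member over the cells of both lines, ATCG00065, stood, in the same classes, at 3487 ± 1066 and 2981 ± 1072 TPM, and ATCG00550 stood at 1505 ± 350 and 1473 ± 531 TPM. ATCG00030, the second highest, was at 7992 ± 4905 and 1411 ± 369 TPM, higher on 5 of 5 plates, and was past the threshold (adjusted p = 0.0035, limma). The rule that defined the cells used the nuclear genes, whose rise is therefore no result. As a description, the median of the 57 was 5.34 on the log2 scale, and RBCS1A, a gene for the Rubisco small subunit, stood at 5.78 and LHCA3, an antenna protein of photosystem I, at 4.84.

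Of the 22 nuclear genes for chloroplast transcription, 6 were higher in the same cells and 0 lower, with a median log2 difference of 2.43. PTAC7, a protein of the transcriptionally active chloroplast chromosome, rose by 5.29 ± 0.95 (adjusted p = 0.0043, limma), and the sigma factor SIG2, which directs the chloroplast RNA polymerase to promoters, rose by 3.86 ± 0.88 (adjusted p = 0.018). GLK2, a nuclear factor that activates photosynthesis genes, rose by 4.17 ± 1.06 (adjusted p = 0.032). The other genes past the threshold were SIGA, FSD3 and TRX z. The count of members called rested on single plates: it was 10 without ML1-7, 11 without ML1-6, 14 without ML1-5, 18 without ML1 and 60 without ML2.

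The third comparison followed the stomatal lineage in TMMp. SPCH, MUTE and FAMA are basic helix-loop-helix factors that act in that order, SPCH at entry to the lineage, MUTE at commitment and FAMA at the last division and guard cell differentiation. A cell was put in the class of the latest of these genes detected at 1 TPM or more, which gave 55 SPCH, 34 MUTE and 55 FAMA cells and 334 stage-negative cells. Photosynthesis-high were 21 of the SPCH cells (38.2%), 22 of the MUTE cells (64.7%), 15 of the FAMA cells (27.3%) and 39 of the stage-negative cells (11.7%). FAMA cells held the lowest chloroplast share, 1.70% ± 0.27 against 3.21% ± 0.55 in stage-negative cells of the same plates (SD, n = 7 plates). On plates TMM-1, TMM-2, TMM3 and TMM4 the FAMA cells had 1.51%, 1.70%, 1.66% and 1.51%, and the stage-negative cells 4.11%, 3.59%, 2.51% and 3.37%. On TMM5, TMM6 and TMM7 the values were 1.86%, 1.45% and 2.22% against 2.74%, 3.24% and 2.89%.

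FAMA cells were lower on 7 of 7 plates and the plate ranges did not overlap. The difference of -1.51 ± 0.71 points (SD) had p = 0.0156 by exact sign-flip test, two-sided, the smallest that 7 plates can give, and 0.047 adjusted over the 3 classes. SPCH cells held 3.02% ± 0.95 on the same plates, a difference of -0.18 ± 1.00 points (adjusted exact p = 0.96). MUTE cells held 3.27% ± 1.45 on the 6 plates with at least 3 such cells, a difference of 0.06 ± 1.73 points (adjusted exact p = 0.97). TMM6 had 1 MUTE cell and was left out of the MUTE values. Compared directly, FAMA cells were 1.32 ± 0.79 points below SPCH cells, lower on 7 of 7 plates (exact sign-flip p = 0.0156), and were lower than MUTE cells on 5 of 6 plates (p = 0.062). These pairs were added after the class values were seen.

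No FAMA cell of TMMp exceeded 3.12%, and the lowest had 0.56%. Several measures moved with the class. FAMA cells had 4464 ± 949 genes detected against 2610 ± 263 in stage-negative cells, and 2.41% ± 0.21 mitochondrial TPM against 3.61% ± 0.29, each in the same direction on 7 of 7 plates. The rise in genes detected was not particular to FAMA cells. SPCH cells had 3853 ± 842 against 2610 ± 263, higher on 7 of 7 plates, and MUTE cells 4147 ± 998 against 2623 ± 286, higher on 6 of 6. The 6 guard cell markers summed to 578 to 1253 TPM in FAMA cells and to 120 to 257 TPM in stage-negative cells, and the 2 mesophyll markers to 0.66 to 215 and 20.0 to 132 TPM. Among cells with at least 3000 genes the FAMA difference was -1.02 points, again lower on 7 of 7 plates (exact sign-flip p = 0.0156). Without photosynthesis-high cells it was -1.45 points, and with medians over cells in place of means -0.85 points, both lower on 7 of 7 plates. The nuclear photosynthesis sum was 8221 ± 880 TPM in FAMA cells and 7143 ± 3081 TPM in stage-negative cells, higher on 4 and lower on 3 plates (exact p = 0.48). In MUTE cells this sum was 10680 ± 978 TPM against 6417 ± 2638 TPM, higher on 6 of 6 plates (exact sign-flip p = 0.031, the smallest possible). In SPCH cells it was 9579 ± 2604 TPM against 7143 ± 3081 TPM, higher on 5 and lower on 2 plates (exact sign-flip p = 0.23). The plates on which FAMA cells were lower were TMM5, TMM6 and TMM7. Stage-negative cells averaged 9037 to 11500 TPM there and 4479 to 5268 TPM on the other plates. Medians of the sum over all cells of a class were 7078 TPM for FAMA, 10830 TPM for MUTE, 7513 TPM for SPCH and 3692 TPM for stage-negative cells.

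ATML1p held 17 FAMA cells, with a mean chloroplast share of 1.62% and a range of 1.01% to 2.19%. On the 3 plates with at least 3 of them the FAMA cells had 1.53%, 1.49% and 1.86%, and the stage-negative cells 6.11%, 6.70% and 4.41%. With photosynthesis-high cells left out, the values on these plates were 1.53%, 1.37% and 1.86% for FAMA cells and 2.40%, 3.73% and 2.42% for stage-negative cells. FAMA cells were lower on 3 of 3 plates both ways, and 3 plates cannot give an exact p below 0.25. Genes detected were 5225 ± 654 in these FAMA cells against 3275 ± 105. Without photosynthesis-high cells they were 5128 ± 655 against 2820 ± 108, and both ways higher on 3 of 3 plates. The mitochondrial share was 2.13% against 2.68%, lower on 2 of 3 plates. Without photosynthesis-high cells it was 2.13% against 3.31%, lower on 3 of 3. ATML1p had 3 MUTE and 2 SPCH cells, too few for a comparison.

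**Figure D4:**
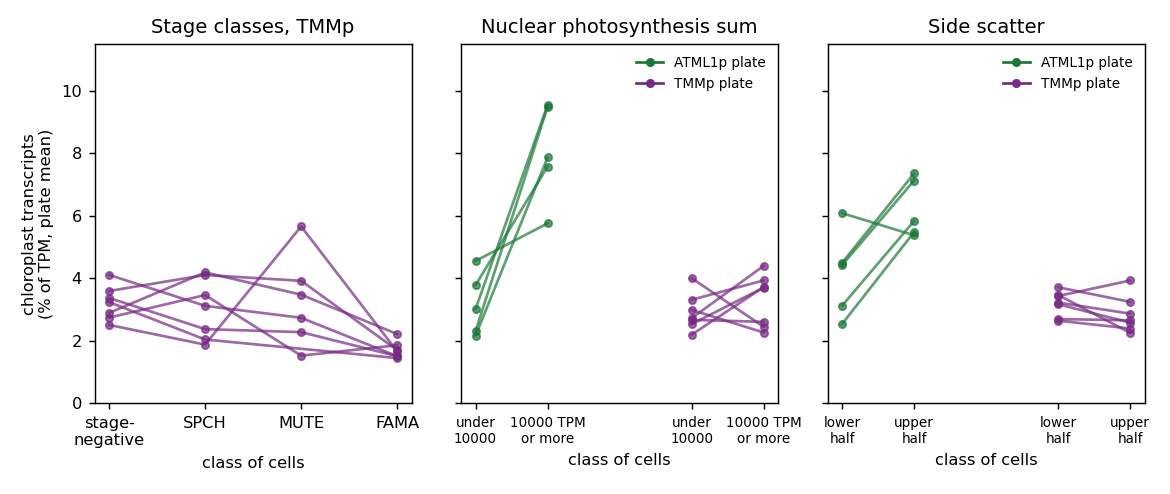
Chloroplast share of TPM averaged over cells of a class on each plate (lines join classes of 1 plate), for the stage classes of TMMp, for cells under and past 10000 TPM of nuclear photosynthesis genes, and for cells below and above the plate's median side scatter. All 7 FAMA means, at 1.45% to 2.22%, lie below the stage-negative means of 2.51% to 4.11%.

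Among single genes, 36 of 97 members tested were lower in FAMA than in stage-negative cells and 0 were higher (37.1%), beside 9.98% of 18626 genes that were lower. The members had a median log2 difference of -1.15, with 96 of 97 below 0, and all genes a median of -0.23. ATCG00580 was at 844 ± 240 TPM in FAMA cells and 2213 ± 882 TPM in stage-negative cells (SD, n = 7 plates). Its plate means of 482 to 1188 TPM did not overlap those of 1311 to 3460 TPM, and the log2 difference was -1.35 ± 0.18 (SE, adjusted p = 0.00016, limma). ATCG00570, its neighbour by identifier and its most correlated partner, was at 503 ± 135 and 1304 ± 497 TPM, a log2 difference of -1.34 ± 0.21 (adjusted p = 0.00052, limma). The ranges of 316 to 684 and 757 to 2010 TPM did not overlap.

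Among the named members 3 fell. CLP P was at 123 ± 64.4 TPM in FAMA cells and 298 ± 50.2 TPM in stage-negative cells, lower on 7 of 7 plates, and its ranges of 42.5 to 215 and 233 to 371 TPM did not overlap (log2 difference -1.44 ± 0.30, adjusted p = 0.0042, limma). Ribosomal protein L20 was at 45.5 ± 21.8 and 98.4 ± 30.3 TPM, with overlapping plate ranges (log2 difference -1.20 ± 0.38, adjusted p = 0.040). The CemA-like protein was at 72.2 ± 66.2 and 143 ± 40.9 TPM, lower on 6 of 7 plates (log2 difference -1.59 ± 0.52, adjusted p = 0.045). L20 was not called without any 1 of TMM-1, TMM-2, TMM3, TMM4 and TMM7 (adjusted p from 0.074 to 0.086), nor the CemA-like protein without any 1 of TMM-1, TMM-2, TMM3, TMM5 and TMM6 (0.070 to 0.10). S11, at 161 ± 97.7 and 341 ± 114 TPM, and photosystem II reaction center protein G, at 27.7 ± 36.8 and 54.3 ± 34.8 TPM, had adjusted p of 0.10 and 0.083.

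CLP P was found in 81.8% of FAMA and 80.5% of stage-negative cells, ATCG00580 in 90.9% and 88.9%, and a FAMA cell had 51.5 ± 8.0 members detected against 48.7 ± 6.4 (exact sign-flip p = 0.16). When log2 values were averaged over cells in place of TPM, 2 of 97 members passed the threshold, both lower in FAMA cells. The median log2 difference over the 97 members was then -0.12, with 60 below 0, beside 0.32 over all genes. When each cell's chloroplast TPM were rescaled to a fixed sum, 0 members were called and 15 had an unadjusted p under 0.05. Of the 57 nuclear photosynthesis genes 2 were higher and 3 lower in FAMA cells, with a median log2 difference of 0.12.

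Few members were called in SPCH and MUTE cells. In SPCH cells 4 of 97 members were lower and 0 higher (4.12%), beside 3.50% of 18629 genes that were lower. The most abundant of the 4 was ATCG00270, at 1430 ± 307 TPM in SPCH cells and 2231 ± 228 TPM in stage-negative cells, with plate ranges of 945 to 1753 and 1874 to 2527 TPM that did not overlap (log2 difference -0.67 ± 0.18, adjusted p = 0.046, limma). Its call was lost with any 1 of the 7 plates left out (adjusted p from 0.050 to 0.13). It is described for its level, and the other 3 were ATCG00390, ATCG00420 and ATCG00440. In MUTE cells 1 of 96 members, ATCG00200, was lower and 0 higher (1.04%), beside 5.16% of 17864 genes. ATCG00200 was seen in 12.1% of MUTE and 11.7% of stage-negative cells, at 21.8 ± 36.7 and 56.7 ± 32.1 TPM, and its call was lost without any 1 of TMM-2, TMM3, TMM4 and TMM5 (adjusted p from 0.061 to 0.12). In SPCH cells the share of members called is near that of all genes, and in MUTE cells it is below it. The median log2 difference over the members was -0.36 in SPCH and -0.47 in MUTE cells, beside -0.26 and -0.47 over all genes. With log2 values averaged over cells these medians turned, to 0.28 with 64 of 97 members above 0 in SPCH cells and to 0.35 with 63 of 96 above 0 in MUTE cells, beside 0.25 and 0.30 over all genes. Under that setting no member was called in SPCH cells, with 11 at an unadjusted p under 0.05, and 2 were called in MUTE cells, both higher.

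**Figure D5:**
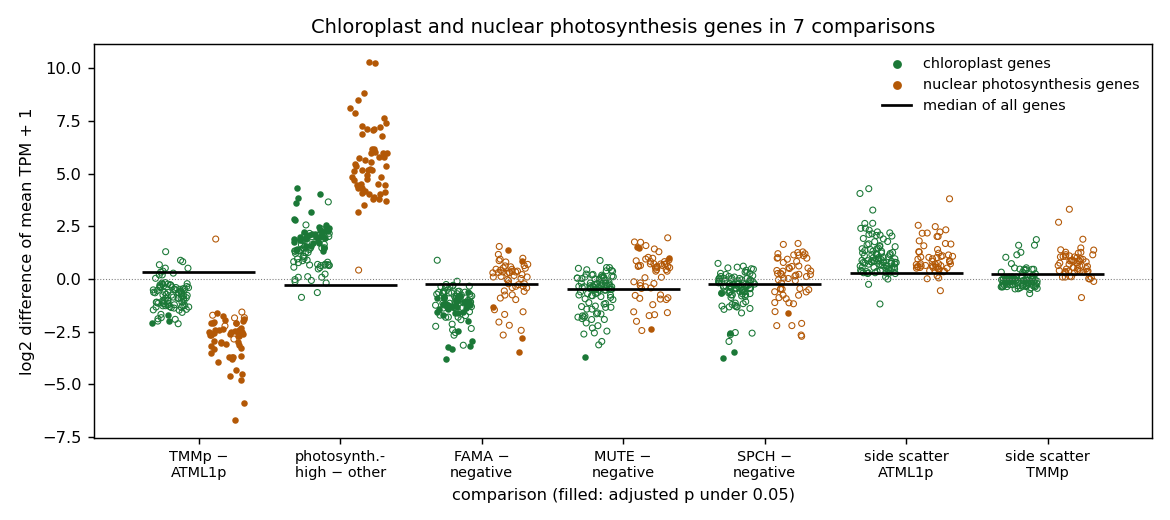
Log2 difference of mean TPM plus 1 for each chloroplast gene (green) and each of 57 nuclear photosynthesis genes (brown) in 7 comparisons, filled where the adjusted limma p is under 0.05, with the median of all genes as a bar. Chloroplast genes have medians of 1.55 in photosynthesis-high ATML1p cells and of -1.15 in FAMA cells, where the nuclear genes have medians of 5.34 and 0.12. The nuclear genes define the photosynthesis-high cells, so their rise and filled points there are no result.

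The last comparison used side scatter, which rises with internal structure such as granules and organelles. Cells above the median side scatter of their ATML1p plate held 6.24% ± 0.94 chloroplast TPM and those below it 4.13% ± 1.38 (SD, n = 5 plates). The high-scatter cells were higher by 2.86 points on ML1, 2.71 on ML2, 2.71 on ML1-5 and 2.94 on ML1-7 and lower by 0.71 points on ML1-6 (exact sign-flip p = 0.125, with 0.062 the smallest possible). In TMMp the high-scatter cells held 2.85% ± 0.58 and the low-scatter cells 3.19% ± 0.40, lower on 6 of 7 plates (exact p = 0.125). Across the cells of a plate the Spearman correlation of chloroplast share with side scatter was 0.27 to 0.47 on the 5 ATML1p plates, with ML1-6 the lowest. It ran from -0.26 to 0.02 on the 7 TMMp plates, and these correlations are descriptions. The difference of 2.1 points in ATML1p and -0.35 in TMMp was itself tested over the 12 plates, with exact permutation p = 0.0088. The classes also differed in detection. High-scatter cells had 3927 ± 679 genes detected against 2720 ± 770 in ATML1p, higher on 5 of 5 plates, and 3639 ± 513 against 2530 ± 437 in TMMp, higher on 7 of 7. Members detected were 64.4 ± 9.0 against 42.8 ± 10.6 in ATML1p and 53.8 ± 6.2 against 46.2 ± 7.1 in TMMp, higher on every plate of both lines. The mitochondrial share was 3.24% ± 0.97 against 2.41% ± 0.90 in ATML1p, higher on 5 of 5 plates, and 3.41% ± 0.51 against 3.63% ± 0.29 in TMMp, lower on 4 of 7. The nuclear photosynthesis sum was 61070 ± 27940 against 50320 ± 49840 TPM in ATML1p, higher on 3 of 5 plates, and 9800 ± 3781 against 6287 ± 715 TPM in TMMp, higher on 6 of 7. Among cells with at least 1000 genes detected the side scatter difference in chloroplast share was 2.03 points in ATML1p (exact p = 0.125) and -0.27 points in TMMp (exact p = 0.031). Forward scatter, the light a cell scatters forward in the sorter, also differed between the classes on the log2 scale. It was 17.0 ± 0.14 in high-scatter and 16.2 ± 0.36 in low-scatter ATML1p cells, higher on 5 of 5 plates. In TMMp it was 16.85 ± 0.084 and 16.37 ± 0.048, higher on 7 of 7. The parts of forward scatter and of the mitochondrial share in the result were not tested.

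The ATML1p difference was -0.13 points without the photosynthesis-high cells (exact p = 0.88). In the remaining cells the Spearman correlation of chloroplast share with side scatter ran from -0.07 to 0.67, with a median of 0.28, and was above 0 on 4 of 5 plates. For these cells limma called 0 of 95 members, with 64 above 0 and a median log2 difference of 0.23, beside 0.23 over all genes. High and other ATML1p cells did not stand apart in side scatter itself, with plate means of 11.3 ± 0.16 and 11.2 ± 0.32 on the log2 scale, but the high cells had lower forward scatter on 5 of 5 plates, 16.4 ± 0.096 against 16.9 ± 0.34. Gene by gene no member passed the threshold in limma. In ATML1p 0 of 97 members were called, with 35 at an unadjusted p under 0.05, a median log2 difference of 0.88 and 94 of 97 above 0, beside 0.0% of 18333 genes called and a median of 0.28. In TMMp 0 of 99 members were called, with 5 at an unadjusted p under 0.05 and a median of -0.07, beside 0.166% of 19302 genes called and a median of 0.23.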

How the data were processed

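The members and gene lists were chosen with earlier results of these data known. The authors deposited TPM for every gene in each cell, and the program behind them is not given in the sources used here. TAIR10 and Cell Ranger are named by the submitters' processing notes without saying for which samples. The authors deposited log2 values of the sorter's scatter and fluorescence channels per cell. The 4 samples made with a droplet method were not analysed here. Names come from the notes and gene table of reference assembly TAIR10.1, and since the builds differ in name no coordinates or sequences are given. The planned grouping of members by symbol and the share without ribosomal and transfer RNA were not run, because only 6 identifiers have a name.

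Cells were not filtered and no doublet caller was run. limma 3.58.1 (R 4.3.3, eBayes with trend) was run on log2(mean TPM + 1) of pools, or of classes of cells on a plate with the plate as block, for genes with a mean of at least 1 TPM in at least 2 units, with Benjamini-Hochberg adjustment over all genes and a threshold of 0.05. Differences on this scale understate the change of low genes. Shares were compared over plates with exact permutation or sign-flip tests in Python 3.11.15 with scipy 1.17.1. Classes needed at least 3 cells on a plate. The limma step was tested on simulated means of pools and of plate classes, with changes set only in the more abundant genes. Single cells were not simulated, so that test does not cover sparse values or low members. Named in the text are the 12 members of highest mean TPM, the members with a name and, in each comparison, members past the threshold by smallest adjusted p; the planned rule took up to 20 of these, but unnamed identifiers are given sparingly, and symbols it listed could not be matched. Depth per cell is unknown, and intervals cover counting of cells only.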

Additional observations from a re-analysis of the deposited data

Results flagged for a closer look

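The effect of side scatter on the chloroplast share differed between lines, by -2.45 points (TMMp minus ATML1p), from 2.1 in ATML1p and -0.35 in TMMp. The effect of high nuclear photosynthesis transcripts also differed between lines, by -4.51 points, from 4.88 in ATML1p and 0.38 in TMMp. Both differences had an exact permutation p under 0.05. On plate ML1-6 the side scatter difference was -0.71 points, far from the 2.71 to 2.94 points of the other 4 ATML1p plates. The Spearman correlation of chloroplast share with side scatter was 0.27 across the cells of ML1-6. On the other 4 plates it was 0.35 to 0.47, so by rank ML1-6 was the lowest but had the same sign. ATCG00270 had 1626 TPM on plate TMM-2 and 2016 to 2195 TPM on the other TMMp plates. ATCG00550 had 1872 TPM on plate TMM-1 and 1060 to 1351 TPM on the other TMMp plates. A single plate far from the rest is expected by chance in about 1 in 20 groups, and 33 groups were looked at.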

How the results depend on the processing

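The line difference in chloroplast share was -0.25 points (p = 0.60) without photosynthesis-high cells and -0.54 points (exact permutation p = 0.47) with the limit at 5000 TPM. It ranged from -2.52 to -1.67 points with 1 plate or pool left out and was -2.08 points with the pool number as replicate block (p = 0.0030). With 1 plate left out, the FAMA difference was -1.65 to -1.33 points, the SPCH difference -0.43 to -0.02, the MUTE difference -0.55 to 0.35, and the side scatter difference -0.49 to -0.20 in TMMp and 1.89 to 2.81 in ATML1p. The TMMp side scatter difference was -0.27 points (exact p = 0.031) in cells with at least 1000 genes, and had p = 0.031 also without plate TMM-1.

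Members called by line, 3 in all, were 0 with a pseudocount of 0.1, without the filter on low values, rescaled over chloroplast genes or without photosynthesis-high cells, 6 with log2 averaged over cells, 8 with quantile normalization or in cells with at least 1000 genes, 12 with values capped at the 99th percentile, 43 with plates as unit, 35 with plates as unit and a pool correlation, and 32 with the pool number as replicate block. Leaving out 1 pool, with the spread then from the other line alone, gave 5 to 42. Pools share only a number: the deviations of same-numbered pools had a correlation of 0.05 over genes.

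FAMA calls were 36, and 2 with log2 averaged over cells, 0 rescaled over chloroplast genes, 23 without photosynthesis-high cells and, added after seeing the data, 10 in cells with at least 3000 genes. Leaving out 1 plate gave 24 to 39. MUTE calls were 0 with a pseudocount of 10, without the filter, rescaled or in cells with at least 3000 genes, 2 with log2 averaged, both higher where the reported call was lower, 5 with quantile normalization, 1 of them higher, and 8 without photosynthesis-high cells, on 2 plates, 2 of them higher. Leaving out 1 plate gave 0 to 2. SPCH calls were 2 with a pseudocount of 0.1, 1 with 10 or in cells with at least 1000 genes, and 0 without the filter, with log2 averaged, rescaled, in cells with at least 3000 genes or without photosynthesis-high cells. Leaving out 1 plate gave 0 to 3. Photosynthesis-high calls were 25 with a pseudocount of 0.1, 0 rescaled and 16 with the limit at 5000 TPM. Leaving out 1 plate gave 10 to 60. Averaging log2 also turned the median over members from below to above 0 in MUTE cells (-0.47 to 0.35), in SPCH cells (-0.36 to 0.28) and in high-scatter TMMp cells (-0.07 to 0.39). Side scatter gave 9 calls, all higher, in TMMp with log2 averaged, and 0 in every other setting run. The causes were not tested. Rescaling over nuclear genes leaves no member to test. Of 227 alternatives for 14 values of single members, 141 kept the side of the threshold, 86 lost it and 0 reversed. Read depth is unknown and sets how far low members can be compared.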
